A study of Mus musculus with 12 samples.

Results

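The nuclear genes of oxidative phosphorylation were taken as every gene in the tables used here whose symbol begins with Nduf, Uqcr, Atp5, Cox4, Cox5, Cox6, Cox7 or Cox8, together with Sdha, Sdhb, Sdhc, Sdhd and Cyc1. The rule used names and not measured values. It found 136 probes for 88 genes among 45281 probes, and all 88 gene IDs matched the reference annotation. A gene was measured by its brightest probe whose detection p was below 0.05 on each of the 3 arrays in 1 or more groups, and 79 of the 88 genes had such a probe, out of 9527 genes in all. Of these 79, 76 were detected on all 12 arrays. The 9 genes with no such probe were Atp5k, Cox4i2, Cox7b2, Cox8b, Ndufaf6, Ndufb11, Ndufs1, Sdha and Uqcrfs1. By complex, 33 of 35 listed genes of complex I were measured, 7 of 8 complex I assembly factors of the Ndufaf series, 3 of 4 genes of complex II, 7 of 8 of complex III, 14 of 17 of complex IV and 15 of 16 of complex V. Ndufa4 is counted with complex IV, where its protein is now placed. Ndufs5-ps is listed as a pseudogene, so its probe may also bind transcripts of Ndufs5.

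Oxidative phosphorylation is carried out in the inner mitochondrial membrane. Complexes I and II pass electrons from NADH and succinate to ubiquinone, complex III hands them to cytochrome c, and complex IV passes them to oxygen, while complex V uses the resulting proton gradient to make ATP. Most subunits are encoded in the nucleus and imported, a few are encoded by mitochondrial DNA, and several subunits of complex IV exist as isoforms used in different tissues. Mouse embryonic stem (ES) cells are known for active glycolysis beside respiration, and metabolism is remodelled as they leave the pluripotent state.

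The arrays held RNA of E14 cells, a male mouse ES cell line of strain 129/Ola, grown without feeder cells on gelatin in serum. Wild type cells (Day 0) were set against cells labelled HDAC1-/-; HDAC2-/wt; CreER (Day 4), in which 4-hydroxytamoxifen (OHT) switches on CreER, a Cre recombinase joined to an estrogen receptor domain, and so removes floxed alleles of the histone deacetylase genes; they are called deleted cells here. The OHT label (16 h at 1 uM) stands on all 12 samples, wild type included, so genotype and day divide the samples in the same way and cannot be told apart. Each genotype was grown with leukaemia inhibitory factor (LIF), the cytokine that holds mouse ES cells undifferentiated in serum, or for 4 days without it. Each of the 4 groups had 3 arrays, and since the labels do not say whether these came from separate cultures, p-values measure the spread between these arrays, which may be technical. Precision is limited by the number of arrays. The standard error (SE) of a log2 difference between 2 groups had a median of 0.118 over the 79 genes and 0.134 over all 9527.

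The deposited tables conflicted in their naming. Each column of the non-normalized table had the rank order of a differently named column of the processed table (Spearman's rho 1, and at most 0.836 with any other). The namings gave the same genotype to 12 of 12 arrays, the same culture to 0 and the same replicate number to 0. All culture directions below follow the names of the processed table. Under the other naming, culture differences and interactions would all have the opposite sign, so that the genes called lower without LIF would be higher, and the comparisons of deleted with wild type cells would exchange their cultures. The comparison of genotypes averaged over cultures is the same under both namings.

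The raw median intensity of an array lay between 91.2 and 216, and an array detected between 32.8% and 41.8% of its probes. Arrays of 1 group correlated at 0.974 to 0.994 and arrays of different groups at 0.929 to 0.98 over all genes. Hdac1 was not analysed here. The Hdac2 probe averaged 0.19 lower in deleted cells on the log2 scale (adjusted p = 0.121, limma), and its values of 10.85 to 11.25 in deleted cells overlapped the 11.03 to 11.45 in wild type cells. All 14 ES cell markers were measured. Under the naming used, 8 of them were lower without LIF in wild type cells (10% of all genes were) and 10 in deleted cells (5.75% of all genes), none was higher, and their summed intensity fell from between 56640 and 58830 to between 33490 and 36280 in wild type arrays and from between 52570 and 56790 to between 38660 and 41610 in deleted arrays. Of 5 measured trophoblast markers, 4 were higher and 1 lower without LIF in wild type cells and 3 higher and 1 lower in deleted cells, where 11.1% and 5.03% of all genes were higher. Their summed intensity was 4486 to 5945 with and 6004 to 7084 without LIF in wild type arrays, and 6130 to 8182 and 6730 to 11800 in deleted arrays; Elf5 was detected on no array. Of 2 measured neuroectoderm markers 1 was higher in wild type and 2 in deleted cells, with sums of 847.7 to 943.6 and 941.2 to 1040 in wild type arrays and 808.1 to 862.2 and 960.2 to 1022 in deleted arrays; Zic1 was detected on no array. The part of these shifts in the results below was not tested, and fewer cells of a type cannot be told apart from less RNA per cell.

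Without LIF, transcripts of the oxidative phosphorylation genes were slightly lower in both genotypes. In wild type cells 12 of the 79 genes fell, 0 rose and 67 did not pass the test (limma, Benjamini-Hochberg adjusted p under 0.05 over all 9527 genes). That is 15.2% of the genes, where 21.1% of all genes were called in either direction and 10% were called lower. The shift was small and broad: 67 of the 79 genes (84.8%) had a log2 difference below 0, against 49.7% of all genes, and the median difference was -0.19, against 0.0024 for all genes. In deleted cells 7 genes fell and 0 rose, or 8.86%, where 10.8% of all genes were called in either direction and 5.75% were called lower. There 69 of 79 genes (87.3%) lay below 0, against 53.8% of all genes, and the median difference was -0.16, against -0.02. Same-numbered deleted arrays deviated together across the cultures, but those of wild type replicate 2 did not (correlation of deviations -0.044). These numbers, and every result with this block, depend on the naming used. With the replicate number as a block over all 12 arrays, 16 genes fell in deleted cells, where 10.4% of all genes did. Cox6a2 is among these genes but was kept only through the groups in which it was high, and without it the counts are 11, 6 and, with the block, 15. The counts moved with single arrays: 5 to 7 genes passed in wild type cells without replicate 1 or 2 with LIF or without replicate 2 or 3 without LIF, and 1 to 3 passed in deleted cells when any deleted array but replicate 1 without LIF was left out. The counts for deleted cells include Cox6a2, which was the 1 gene left without deleted replicate 3 with LIF. The shares of all genes called in these runs are not given here. A loss particular to these genes therefore cannot be told apart from a general loss of calls. When the non-normalized values were scaled by array medians, 1 gene passed in wild type cells, and it was not among the 12 that fell above. In deleted cells 2 passed, Cox7a1 and Cox6a2. The medians were -0.31 and -0.27, and the all-gene medians under this scaling are not given here. Among all genes, 229 of 717 calls were then higher in wild type cells, against 1054 of 2010 before. In deleted cells 69 of 362 were higher, against 479 of 1027.

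The arrays separated by culture in the median over the 79 genes. Relative to the mean of wild type cells with LIF, that median on the log2 scale with LIF was 0.0364, 0.0105 and -0.0426 in the wild type samples and 0.0946, 0.0036 and 0.0398 in the deleted samples. Without LIF it was -0.1405, -0.2023 and -0.1871 in the wild type samples and -0.0888, -0.1633 and -0.1259 in the deleted samples. Each of the 6 arrays without LIF was thus below each of the 6 with LIF. Gene by gene, all 3 arrays without LIF were below all 3 with LIF for 32 of the 79 genes in wild type cells (16.9% of all genes) and also for 32 in deleted cells (17.6% of all genes). The opposite order was seen for 1 gene in wild type cells (18.1% of all genes) and for 0 in deleted cells (13.8% of all genes). Cox6a2, kept only through the groups with LIF, is counted among the 32 in each genotype.

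**Figure D1:**
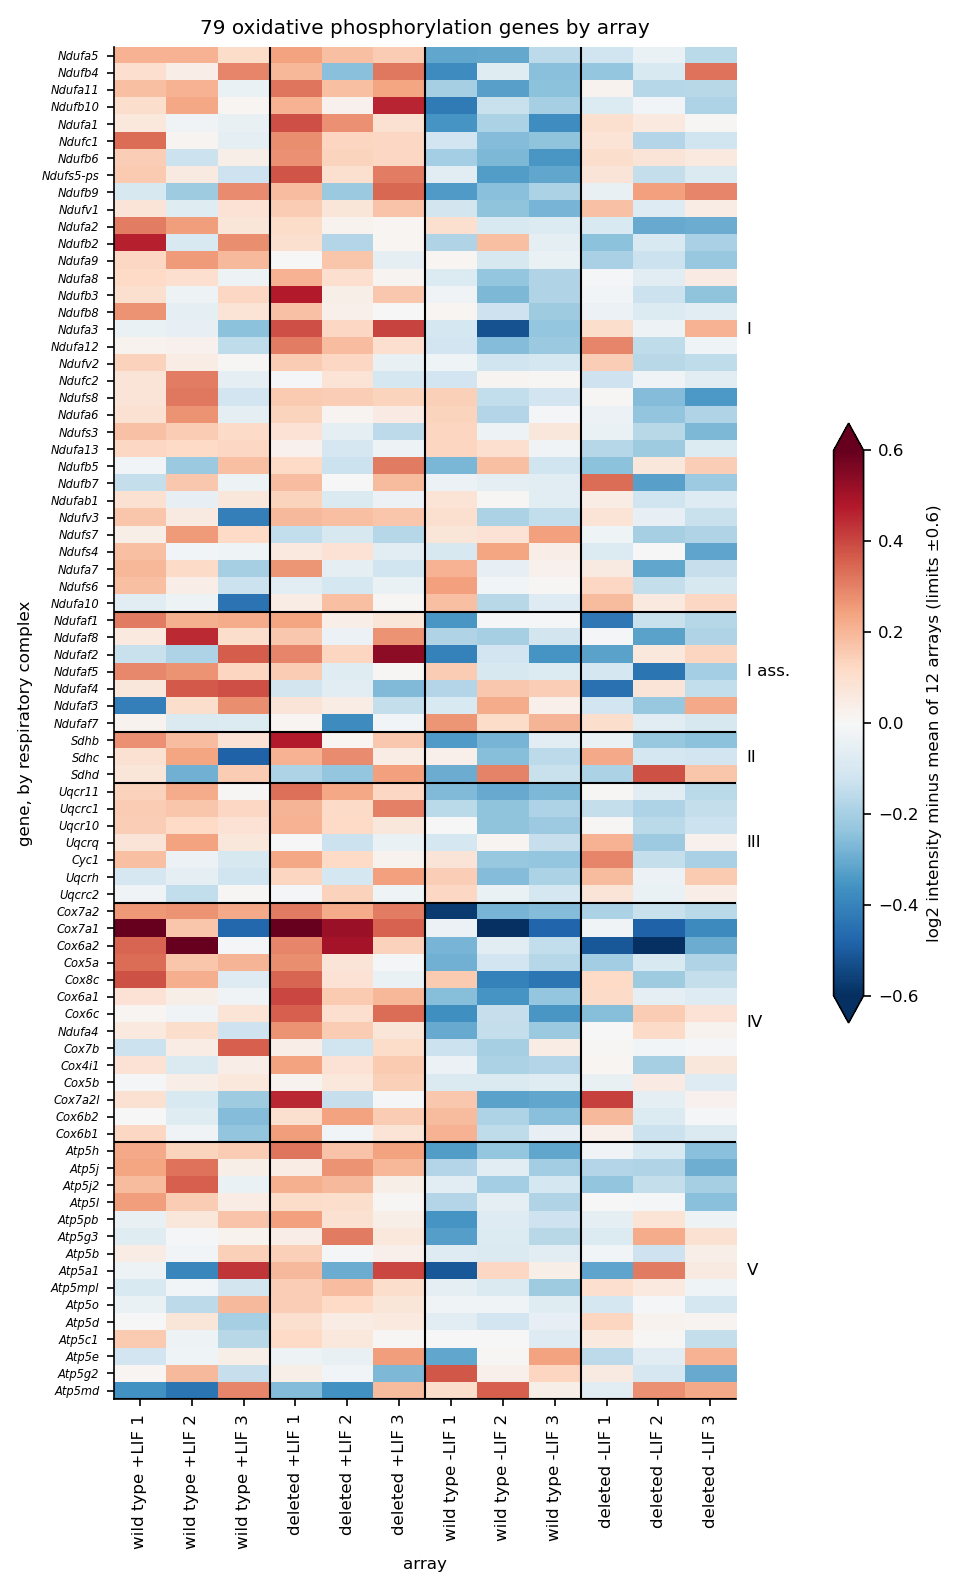
Log2 intensity of the 79 genes (rows, by complex; "I ass." marks complex I assembly factors) on the 12 arrays (columns), each gene centred on its mean over the 12 arrays, with colours limited to ±0.6. Most rows are on average lower (toward blue) without LIF than with it (toward red), 67 of 79 in wild type and 69 of 79 in deleted cells. In 32 rows of each genotype the cultures do not overlap, with the arrays without LIF lower.

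Among the subunits of complex I, which oxidises NADH, 29 of 33 genes lay below 0 in each genotype (median -0.17 in wild type and -0.16 in deleted cells), but few passed the test. Ndufa11, an accessory subunit of the membrane arm, fell in both genotypes. Its log2 intensity was 10.72, 10.75 and 10.50 in wild type cells with LIF and 10.34, 10.21 and 10.30 without, and 10.86, 10.72 and 10.78 in deleted cells with LIF and 10.56, 10.37 and 10.37 without. The groups did not overlap in either genotype, and the log2 difference was -0.37 ± 0.11 (SE, adjusted p = 0.0232, limma) in wild type and -0.35 ± 0.11 (adjusted p = 0.0485) in deleted cells. Ndufa5, an accessory subunit of the matrix arm, read 9.89, 9.89 and 9.79 with LIF and 9.37, 9.38 and 9.53 without it in wild type cells. It fell there by 0.43 ± 0.09 (SE) on the log2 scale (adjusted p = 0.00533, limma), while the -0.30 in deleted cells did not pass (adjusted p = 0.0604, or 0.0394 with the replicate block). A dimmer second probe of Ndufa5 differed by -0.06 in wild type cells and did not pass.

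Ndufs7, which carries the last iron-sulphur cluster before ubiquinone, showed no difference between cultures beyond its error (-0.00 ± 0.10 in wild type and 0.00 ± 0.10 in deleted cells, log2 difference ± SE). Ndufv1, which binds NADH and flavin, differed by -0.24 ± 0.10 (adjusted p = 0.119, limma) and -0.08 ± 0.10 (adjusted p = 0.678). The widest range within the complex in wild type cells ran from -0.43 for Ndufa5 to 0.16 for Ndufa10, and in deleted cells from -0.35 for Ndufb3 (adjusted p = 0.0233 with the replicate block) to 0.06 for Ndufb9. Of the 7 measured assembly factors, which build complex I and then leave it, 5 lay below 0 in wild type and 6 in deleted cells. Ndufaf1, a factor for the membrane arm, was 9.29, 9.19 and 9.20 with LIF and 8.62, 8.97 and 8.96 without it in wild type cells, and fell by 0.37 ± 0.12 (adjusted p = 0.0433, limma). In deleted cells its difference was also -0.36 but did not pass (adjusted p = 0.078, or 0.0422 with the replicate block). Ndufaf7, a methyltransferase of complex I assembly, was the highest of these factors, at 0.24 in wild type and 0.11 in deleted cells, and did not pass.

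In complex II, the link to the citric acid cycle, Sdhb encodes the iron-sulphur subunit. Its log2 intensity in wild type cells was 9.76, 9.67 and 9.58 with LIF and 9.15, 9.21 and 9.43 without, a fall of 0.41 ± 0.13 (SE, adjusted p = 0.0387, limma). In deleted cells the values were 9.97, 9.50 and 9.65 with LIF and 9.45, 9.26 and 9.24 without. There too the groups did not overlap, but the difference of -0.39 did not pass (adjusted p = 0.0758, or 0.0307 with the replicate block). A second Sdhb probe of nearly the same brightness passed in both genotypes, at -0.45 (adjusted p = 0.0155 over all probes kept, limma) and -0.49 (adjusted p = 0.0174). The membrane anchors Sdhc and Sdhd had log2 differences of -0.08 and -0.02 in wild type and -0.18 and 0.18 in deleted cells, none of which passed.

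In complex III, 2 of 7 genes fell in wild type and 1 in deleted cells. Uqcrc1, the core structural subunit, was tight between arrays: 11.42, 11.43 and 11.39 with LIF against 11.10, 11.03 and 11.08 without in wild type cells, and 11.47, 11.38 and 11.57 against 11.12, 11.08 and 11.12 in deleted cells. The groups lay apart in both genotypes, with log2 differences of -0.34 ± 0.09 (SE, adjusted p = 0.0172, limma) and -0.37 ± 0.09 (adjusted p = 0.0203). Uqcr11, a small accessory subunit, read 12.26, 12.35 and 12.13 with LIF and 11.86, 11.82 and 11.86 without in wild type cells, a fall of 0.40 ± 0.10 (adjusted p = 0.0122, limma). Its difference of -0.30 in deleted cells did not pass (adjusted p = 0.0768, or 0.0345 with the replicate block). Cyc1, the haem-bearing cytochrome of the complex, differed by -0.15 ± 0.14 and -0.14 ± 0.14, and Uqcrc2, the other core protein, by 0.05 and -0.01, with no call in either genotype.

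Complex IV, cytochrome c oxidase, held the largest differences, and these lay in subunits that exist as isoforms. Cox7a2, the isoform of subunit 7a used in most tissues, was 8.54, 8.55 and 8.51 in wild type cells with LIF and 7.71, 8.00 and 8.02 without. In deleted cells it was 8.59, 8.50 and 8.59 with LIF and 8.09, 8.15 and 8.12 without. The cultures were clearly apart in both genotypes: it fell by 35.1% in wild type cells (log2 difference -0.62 ± 0.10 SE, adjusted p = 0.000807, limma) and by 26.4% in deleted cells (-0.44 ± 0.10, adjusted p = 0.0138).

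Cox7a1, the heart and skeletal muscle isoform of the same subunit, varied widely between arrays: 9.98, 9.45 and 8.82 in wild type cells with LIF and 9.25, 8.65 and 8.81 without. These groups overlapped, and the difference of -0.51 ± 0.24 (SE) did not pass (adjusted p = 0.16, limma). In deleted cells the values were 10.07, 9.80 and 9.64 with LIF and 9.26, 8.80 and 8.91 without, which did not overlap, and Cox7a1 fell by 44.5% (log2 difference -0.85 ± 0.24, adjusted p = 0.0391). Cox7a2l, a relative that takes part in joining complexes III and IV, differed by -0.09 and 0.03 and did not pass.

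Cox6a2, the heart and skeletal muscle isoform of subunit 6a, was near the detection floor (log2 6.44 to 6.61), so its differences are compressed. It was detected on all 3 arrays of each group with LIF, on 2 of 3 wild type arrays without LIF and on 1 of 3 deleted arrays without LIF. It read 7.17, 7.48 and 6.81 against 6.54, 6.76 and 6.67 in wild type cells and 7.11, 7.32 and 6.96 against 6.31, 6.19 and 6.53 in deleted cells. The groups did not overlap in either genotype, and the log2 differences were -0.49 and -0.79. Since the gene was kept only through the groups with LIF, and 1 of 3 deleted arrays without LIF measured it, these are given as a description with no test. Cox6a1, the isoform of most other tissues, fell in wild type cells by 0.31 ± 0.10 (adjusted p = 0.0456), from 11.71, 11.66 and 11.61 to 11.37, 11.27 and 11.40. The -0.26 of Cox6a1 in deleted cells did not pass (adjusted p = 0.138). Of 7 measured heart and skeletal muscle markers, Acta1 and Actc1 were higher without LIF in both genotypes (2.45 and 2.26 in wild type, 2.52 and 2.22 in deleted cells, log2 differences), Mylpf was lower in both (-1.61 and -1.12) and 4 did not pass, with medians of 0.03 and 0.08. Their summed intensity over 11 markers, of which Myod1 was detected on no array, was 2876 to 3118 and 4086 to 5920 in wild type arrays with and without LIF, and 5104 to 6367 and 7239 to 11600 in deleted arrays. The part of these markers in the differences of Cox6a2 and Cox7a1 was not tested.

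Cox5a, a subunit that faces the matrix, fell from 13.05, 12.88 and 12.92 to 12.43, 12.60 and 12.54 in wild type cells (-0.43 ± 0.11 SE, adjusted p = 0.0117, limma), and its -0.27 in deleted cells did not pass (adjusted p = 0.126). The main isoform of subunit 4, Cox4i1, differed by -0.15 ± 0.11 and -0.20 ± 0.11, and Cox5b by -0.12 ± 0.09 and -0.10 ± 0.09; none passed. Cox6b1 and its testis isoform Cox6b2 were at 0.05 and 0.03 in wild type and at -0.17 and -0.13 in deleted cells, with no call. Cox8c, the testis isoform of subunit 8, was detected on 10 of 12 arrays and differed by -0.40 and -0.21, neither passing. Ndufa4 differed by -0.24 and -0.12 and did not pass.

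In complex V, ATP synthase, the genes that fell, Atp5h and Atp5j, encode parts of the peripheral stalk, which holds the catalytic head against the turning rotor. Atp5o and Atp5pb, also of the stalk, differed by -0.04 and -0.25 in wild type and by -0.19 and -0.12 in deleted cells and did not pass. The membrane subunit genes Atp5j2 and Atp5l differed by -0.30 and -0.29 in wild type and by -0.34 and -0.16 in deleted cells. Neither passed without the replicate block. Atp5h, subunit d of the stalk, read 10.79, 10.69 and 10.71 with LIF and 10.22, 10.32 and 10.25 without in wild type cells, and 10.88, 10.73 and 10.80 against 10.54, 10.46 and 10.31 in deleted cells. The cultures did not overlap in either genotype. Atp5h fell by 27.5% in wild type cells (log2 difference -0.46 ± 0.10 SE, adjusted p = 0.00456, limma) and by 22.3% in deleted cells (-0.36 ± 0.10, adjusted p = 0.03).

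Atp5j, coupling factor 6 of the stalk, read 11.23, 11.32 and 11.03 against 10.82, 10.93 and 10.79 in wild type cells and 11.04, 11.27 and 11.19 against 10.82, 10.82 and 10.70 in deleted cells. It fell by 0.35 ± 0.11 (SE, adjusted p = 0.0355, limma) and 0.39 ± 0.11 (adjusted p = 0.0348), again with no overlap. A second, much dimmer Atp5j probe differed by 0.00 and -0.19 and did not pass.

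The catalytic subunits did not pass. Atp5b, the beta subunit, was 14.54, 14.48 and 14.64 with LIF and 14.42, 14.41 and 14.44 without in wild type cells, a difference of -0.13 ± 0.10 (SE, adjusted p = 0.367, limma) whose arrays did not overlap. The alpha subunit Atp5a1 ran from 9.86 to 10.79 over the arrays with no order by culture (-0.12 ± 0.24 and -0.08 ± 0.24). The ring subunit genes Atp5g2 and Atp5g3, which encode the same mature protein, differed by 0.15 and -0.17 in wild type cells and by -0.03 and -0.06 in deleted cells, with no call. Atp5md, a small membrane subunit, had the highest difference of all 79 genes in both genotypes, 0.34 ± 0.19 and 0.29 ± 0.19, and did not pass in either.

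**Figure D2:**
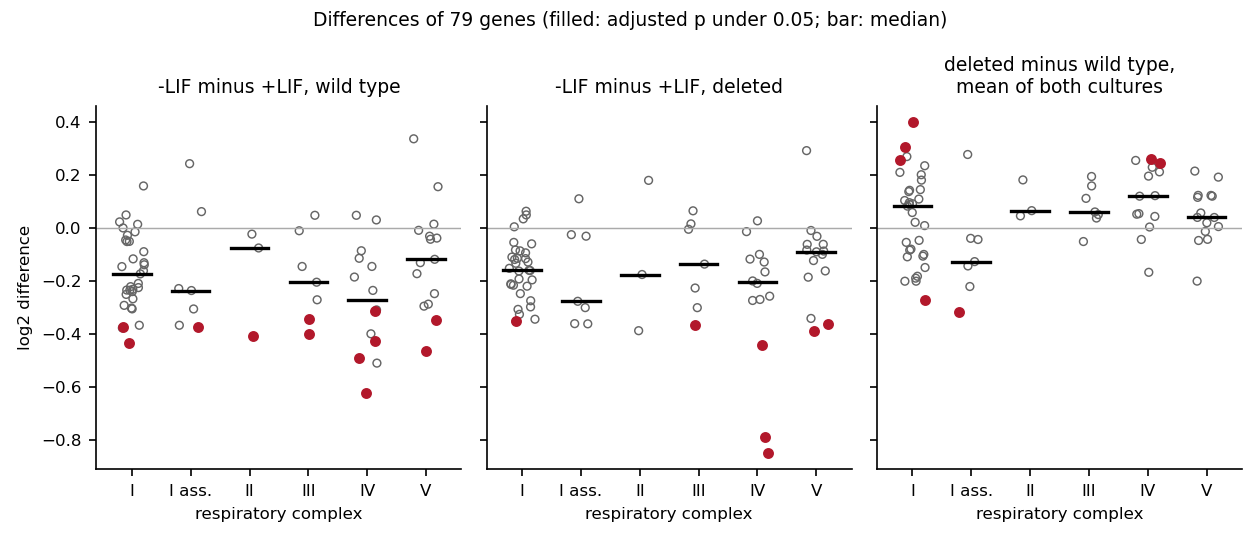
Log2 differences of the 79 genes by complex (x axis; "I ass." marks assembly factors) for the culture comparison in wild type cells, the culture comparison in deleted cells, and deleted minus wild type averaged over cultures. Filled points passed at an adjusted p under 0.05, open points did not, and bars mark medians; the filled points of the culture panels all lie below 0, at most as high as -0.31 for Cox6a1.

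Among the genes detected on all 12 arrays, 5 passed as lower in both genotypes, namely Atp5h, Atp5j, Cox7a2, Ndufa11 and Uqcrc1. They make up 45.5% of the 11 such genes that fell in wild type and 83.3% of the 6 that fell in deleted cells. Of all 9527 genes, 956 fell in wild type and 548 in deleted cells, and 413 passed as lower in both. The 413 are 4.34% of all genes, which is not a share of the genes that fell. The culture comparisons of the genotypes share no arrays but are not independent. Same-numbered arrays of both genotypes deviated together within a culture (correlation of deviations 0.268 to 0.681). Across the 79 genes the log2 differences in wild type and deleted cells correlated at Pearson's r = 0.735 and Spearman's rho = 0.703, against 0.797 and 0.698 across all genes. Genes are not independent replicates, so this is a description only. In all, 61 of 79 genes (77.2%) were below 0 in both genotypes, where 39% of all genes were.

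**Figure D3:**
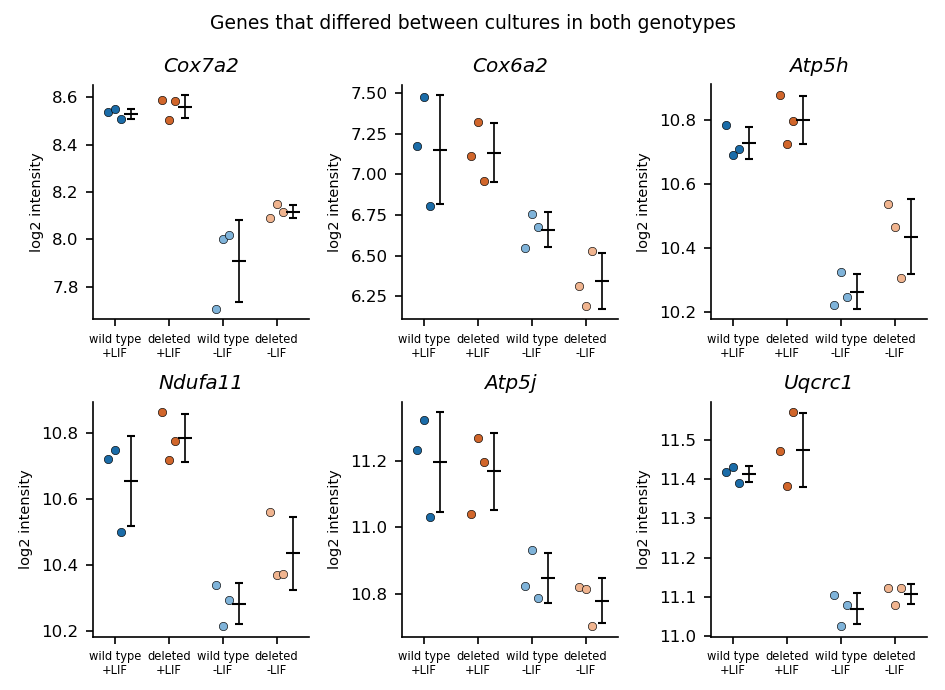
Log2 intensity (y axis, a separate scale for each gene) of the 5 genes detected on all arrays that were lower without LIF in both genotypes, and of Cox6a2, which is near the detection floor without LIF, on the 3 arrays of each group (points) with mean ± SD beside them. In each panel the arrays without LIF lie below those with LIF of the same genotype.

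Whether deletion altered the culture difference was tested by the interaction. No gene of the 79 passed (0 of 79, limma), 0 had an unadjusted p under 0.05 where 7.58% of all genes did, and the smallest adjusted p was 0.791 for Uqcrq; of all genes, 0.0525% passed. The largest interaction was that of Cox7a1, -0.34 with a 95% interval from -1.08 to 0.40. For Ndufb9, an accessory subunit of complex I, it was 0.31 (interval from -0.17 to 0.80), and for Cox7a2 0.18 (interval from -0.13 to 0.49). These intervals are wide beside the differences themselves. A gene that passed in only 1 genotype is therefore not shown to differ between them.

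**Figure D4:**
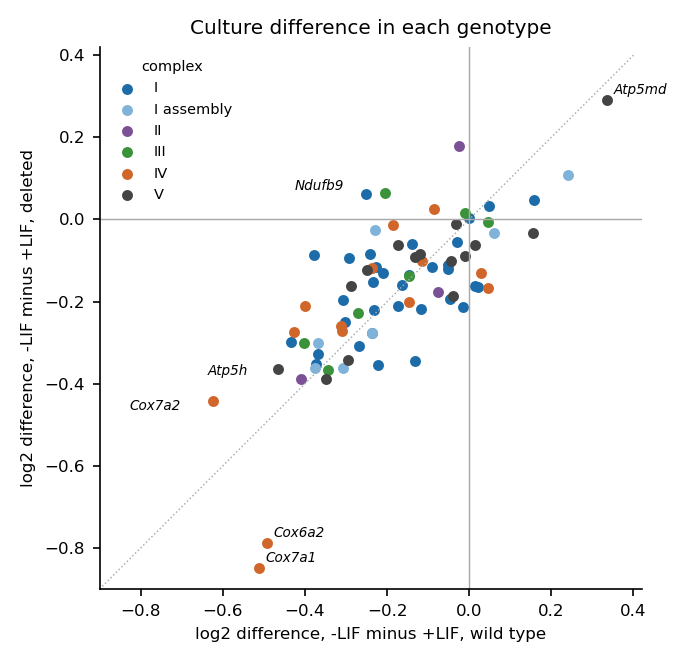
Log2 difference between cultures (without LIF minus with LIF) of each of the 79 genes in wild type cells (x axis) and in deleted cells (y axis), coloured by complex, with the line of equality dotted. Most points (61 of 79) lie below 0 on both axes, and Cox7a2, Cox6a2 and Cox7a1 lie farthest out.

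Promoters of the genes that moved together were read because many respiratory genes are known to carry sites for nuclear respiratory factor 1 (NRF1) and for ETS factors such as GABP. Windows of 250 bases before the annotated start were listed for 72 of the 88 genes and for 27025 genes in all (RefSeq, GRCm38.p6). Most of the 27025 were not among the 9527 genes measured, and no share was taken over measured genes only. Both strands were searched, and the motifs do not overlap one another in the windows shown. The palindromic NRF1 core CGCATGCG was found in 8 of 72 windows (11.1%), against 1.75% of all windows. The ETS letters CCGGAAG were found in 14 of 72 (19.4%), against 7.83%, and the YY1 letters AAGATGGC in 1 of 72 (1.39%), against 1.83%. A match is a description of the sequence and not a bound site. The windows of 3 of the 5 genes named above as lower in both genotypes are shown because each holds at least 1 of these motifs; the capitals mark the matches on either strand.
Atp5h (chr11:115419920-115420169, minus strand): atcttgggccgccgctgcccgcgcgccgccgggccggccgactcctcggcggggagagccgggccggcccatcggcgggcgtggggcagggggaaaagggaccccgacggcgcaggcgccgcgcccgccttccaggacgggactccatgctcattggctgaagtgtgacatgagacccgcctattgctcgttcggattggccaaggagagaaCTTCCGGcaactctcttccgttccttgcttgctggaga
Atp5j (chr16:84834977-84835226, minus strand): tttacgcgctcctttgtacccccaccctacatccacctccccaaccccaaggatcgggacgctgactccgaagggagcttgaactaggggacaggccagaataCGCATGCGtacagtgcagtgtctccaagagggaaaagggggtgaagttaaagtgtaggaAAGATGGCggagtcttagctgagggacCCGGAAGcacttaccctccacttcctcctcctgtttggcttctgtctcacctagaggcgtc
Ndufa11 (chr17:56717512-56717761, plus strand): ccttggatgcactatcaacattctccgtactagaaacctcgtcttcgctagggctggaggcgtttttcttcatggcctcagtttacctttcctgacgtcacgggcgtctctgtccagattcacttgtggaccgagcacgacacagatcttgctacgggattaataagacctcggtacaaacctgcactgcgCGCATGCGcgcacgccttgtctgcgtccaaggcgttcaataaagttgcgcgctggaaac
In Atp5h the ETS letters begin 38 bases before the start. In Atp5j the NRF1 core begins 147 bases, the YY1 letters 88 bases and the ETS letters 61 bases before it. The NRF1 core of Ndufa11 begins 59 bases before it. These 3 genes were picked as lower without LIF, so their windows cannot show a link between motif and difference. The same letters also stood before genes that did not pass between cultures, such as Atp5g2 (NRF1 core) and Cox6b1 and Uqcrh (ETS letters).

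Few of these genes passed between genotypes without the pairing described below. With LIF, 0 of 79 genes passed between deleted and wild type cells, where 10% of all genes did (limma); at an unadjusted p under 0.05 there were 3 higher and 2 lower, where 26% of all genes were past that level. Without LIF, 2 genes rose and 0 fell (2.53%, where 10.5% of all genes passed). The median differences were 0.05 and 0.06, against 0.02 and 0.0028 for all genes. These comparisons use different arrays, and averaging them gives the comparison that does not depend on the naming. There 5 genes rose and 2 fell, or 8.86%, where 24.4% of all genes passed, 14.1% higher and 10.3% lower. The median was 0.06, against 0.01 for all genes. Same-numbered arrays of both genotypes deviated together within a culture, and with that pairing as a block within culture 17 genes were higher and 8 lower in the averaged comparison, where 39.6% of all genes passed. The paired counts were 3 higher and 1 lower with LIF, where 25% of all genes passed, and 6 higher and 2 lower without LIF, where 25.2% did. The 2 lower include Cox6a2, which was kept only through the groups with LIF. Of the 7 genes of the averaged comparison 1 passed with median scaling, 3 without deleted replicate 1 with LIF and 4 without wild type replicate 3 without LIF; the 2 called without LIF fell to 0 when any of 5 of the 6 arrays without LIF was left out, wild type replicate 1 being the exception, or deleted replicate 2 with LIF. The shares of all genes called with an array left out are not given here. Markers of other cell types moved in the averaged comparison too. Of 7 measured markers of primitive and visceral endoderm 6 were higher in deleted cells (median 0.35), with sums of 2322 to 2640 against 3114 to 3481 with LIF and 2435 to 2665 against 3023 to 3244 without; Gata4, Foxa2 and Afp were detected on no array. Of 6 fibroblast and stroma markers 4 were higher and 1 lower, with sums of 2410 to 2685 against 3035 to 3194 with LIF and 2291 to 2500 against 2448 to 2887 without; Col1a2, Dcn, Lum and S100a4 were detected on no array. Of 7 muscle markers 4 were higher, of 5 trophoblast markers 2, of 14 ES cell markers 2 were higher and 3 lower, and of 2 neuroectoderm markers 1 was higher and 1 lower; sums of the muscle, trophoblast, ES cell and neuroectoderm lists are given above. Of 2 mesoderm and primitive streak markers 0 passed. The part of these shifts in the genotype differences was not tested.

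The genes that rose were small accessory subunits of complexes I and IV. Ndufa3, of the membrane arm of complex I, was 10.80, 10.79 and 10.59 in wild type and 11.23, 10.96 and 11.24 in deleted cells with LIF, and 10.73, 10.32 and 10.61 in wild type and 10.94, 10.81 and 11.05 in deleted cells without. The genotypes did not overlap in either culture, and the averaged log2 difference was 0.40 ± 0.09 (SE, adjusted p = 0.00703, limma), an increase of 31.8%. A second Ndufa3 probe passed as well, at 0.28 (adjusted p = 0.0473 over all probes kept).

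Ndufa1, an X-linked gene for a membrane-arm subunit needed for assembly, was 11.66, 11.57 and 11.55 against 11.98, 11.87 and 11.69 with LIF and 11.24, 11.41 and 11.23 against 11.69, 11.65 and 11.60 without. Deleted arrays were above wild type arrays in both cultures, with an averaged difference of 0.31 ± 0.07 (SE, adjusted p = 0.00935, limma). It was also 1 of the 2 genes that passed without LIF alone (0.36 ± 0.10, adjusted p = 0.043). The other was Ndufb6, of the same arm, at 12.06, 11.99 and 11.91 in wild type and 12.37, 12.34 and 12.32 in deleted cells (0.36 ± 0.10, adjusted p = 0.0413). With LIF the genotypes overlapped for Ndufb6 (12.41, 12.13 and 12.30 against 12.53, 12.39 and 12.38), and the averaged difference was 0.26 ± 0.07 (adjusted p = 0.0199). A dimmer second Ndufb6 probe averaged 0.10 and did not pass.

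In complex IV, Cox6c, a small membrane subunit, was 11.63, 11.60 and 11.70 against 11.98, 11.72 and 11.96 with LIF and 11.25, 11.48 and 11.27 against 11.37, 11.77 and 11.71 without. The genotypes overlapped without LIF, and the averaged difference of 0.26 ± 0.09 was close to the threshold (SE, adjusted p = 0.0466, limma). Cox6a1 was 11.71, 11.66 and 11.61 against 12.03, 11.78 and 11.83 with LIF and 11.37, 11.27 and 11.40 against 11.74, 11.57 and 11.55 without. It rose by 0.25 ± 0.07 (adjusted p = 0.0262) with no overlap in either culture, while its muscle isoform Cox6a2 was at -0.17 and did not pass (adjusted p = 0.303).

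Of the genes that fell in the averaged comparison, Ndufs7 was 11.15, 11.37 and 11.24 against 10.97, 11.02 and 10.95 with LIF and 11.19, 11.20 and 11.36 against 11.09, 10.92 and 10.93 without. Deleted arrays were below wild type arrays in both cultures, and it fell by 0.27 ± 0.07 (SE, adjusted p = 0.015, limma), or by 17.3%. Ndufaf4, an assembly factor of complex I, was 9.03, 9.33 and 9.35 against 8.85, 8.90 and 8.70 with LIF, with no overlap. Without LIF it was 8.79, 9.13 and 9.11 against 8.52, 9.04 and 8.82, which overlapped, and it fell by 0.32 ± 0.10 over both (adjusted p = 0.0389). A dimmer second Ndufaf4 probe had the other sign, 0.15 averaged, and did not pass. Of the 7 measured assembly factors 6 lay below 0 in this comparison, and the exception, Ndufaf2, was at 0.28 and did not pass (adjusted p = 0.108).

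**Figure D5:**
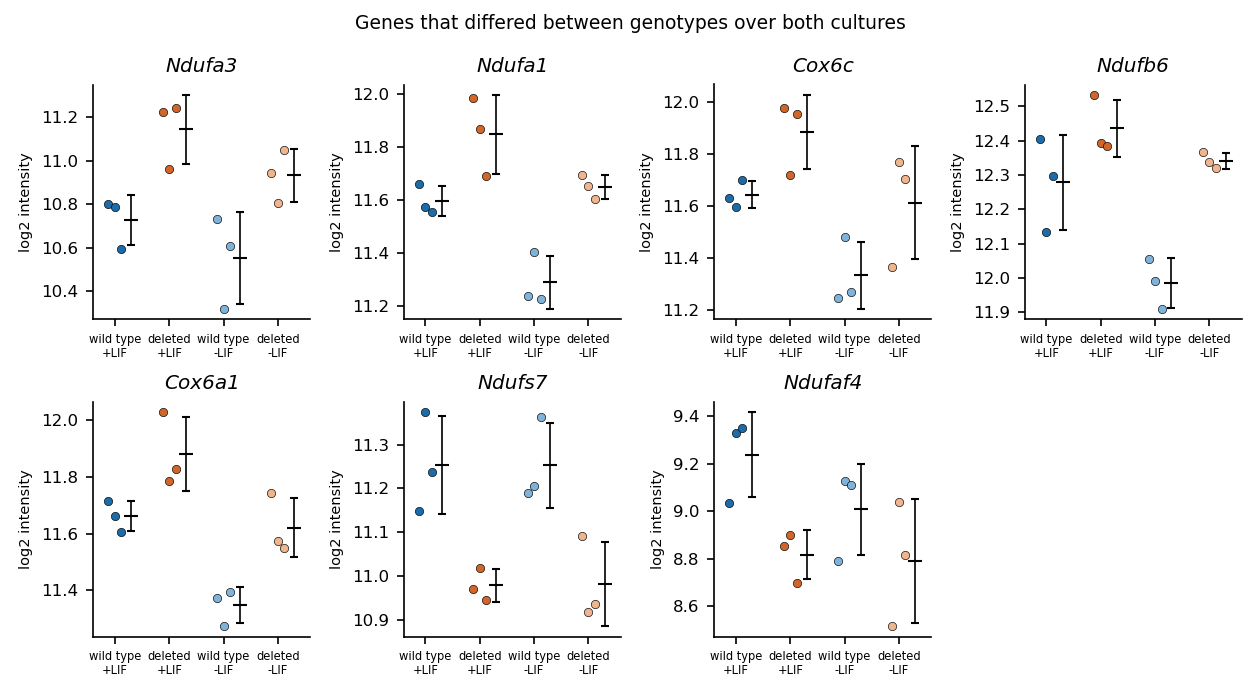
Log2 intensity (y axis, a separate scale for each gene) of the 7 genes that differed between deleted and wild type cells averaged over cultures, on the 3 arrays of each group (points) with mean ± SD beside them. Deleted arrays are higher in the 5 panels from Ndufa3 to Cox6a1 and lower for Ndufs7 and Ndufaf4, with overlap without LIF for Cox6c and Ndufaf4 and with LIF for Ndufb6.

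The core enzymes showed no call between genotypes without the pairing. The averaged log2 difference was 0.18 ± 0.07 for Ndufv1 (SE, adjusted p = 0.0896, limma), 0.04 ± 0.09 for Sdhb and 0.05 ± 0.07 for Uqcrc1. It was 0.11 ± 0.10 for Cyc1, 0.12 ± 0.08 for Cox4i1 and 0.05 ± 0.06 for Cox5b. It was 0.11 ± 0.17 for Atp5a1 and 0.02 ± 0.07 for Atp5b, whose 95% interval ran from -0.13 to 0.17. The highest in complexes II, III and V were Sdhc at 0.18, Uqcrh at 0.19 and Atp5g3 at 0.21, and none passed. With the pairing as a block within culture, Ndufv1 (adjusted p = 0.0409, limma), Atp5g3 (adjusted p = 0.022) and Ndufaf2 (adjusted p = 0.00898) passed as higher in the averaged comparison. With LIF alone, the gene nearest to the threshold was Ndufa3 at 0.42 (adjusted p = 0.0561), and the largest difference was that of Cox7a1, also 0.42, whose arrays overlapped. With the pairing as a block within culture, Cox7a1 (adjusted p = 0.0216), Ndufa3 (adjusted p = 0.0129), Ndufaf2 and, downward, Ndufaf4 (adjusted p = 0.0111) passed with LIF (limma). Without LIF the pairing added Ndufb9, at 0.43 (adjusted p = 0.00709, limma), Ndufa3, Cox6a1, Ndufa4 and, downward, Atp5g2 to the 2 genes named above. The paired count also holds Cox6a2 as lower, but that gene was kept only through the groups with LIF. It was detected on 2 of 3 wild type and 1 of 3 deleted arrays without LIF, so no test is given for it.

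Other genes of the respiratory pathway did not all move with the subunits; over all genes 11.1% rose and 10% fell in wild type cells and 5.03% rose and 5.75% fell in deleted cells. Of 17 measured complex IV assembly factors, 16 were below 0 between cultures in each genotype, with medians of -0.26 in wild type and -0.17 in deleted cells; 2 fell in wild type cells, Cox19 at -0.52 (adjusted p = 0.00372, limma) and Sco1, a copper chaperone, at -0.52 (adjusted p = 0.0497), and 0 passed in deleted cells. Of 12 genes for cytochrome c and other electron carriers, Etfb, of the electron transfer flavoprotein, fell in both genotypes (-0.57 and -0.52) and no other passed. Of 68 mitochondrial ribosomal protein genes, 8 fell and 1 rose in wild type cells and 6 fell and 0 rose in deleted cells, with medians of -0.13 and -0.14. Of 15 genes of mitochondrial transcription and biogenesis, Gabpa, which encodes the DNA-binding part of GABP, fell in both genotypes (-0.50 and -0.44), Tfam, which packages and transcribes mitochondrial DNA, fell in wild type cells (-0.41), and Polg, the mitochondrial DNA polymerase, rose in both (1.00 and 0.74). In all, 2 rose and 3 fell in wild type and 1 rose and 2 fell in deleted cells. Of 14 genes of pyruvate dehydrogenase and the citric acid cycle, Pdhb, of pyruvate dehydrogenase, fell in wild type cells (-0.35) and Mdh2, of the cycle, in deleted cells (-0.34). In the smaller lists, 1 of 4 complex II assembly genes fell in each genotype, Sdhaf1 in wild type (-0.33) and Sdhaf4 in deleted cells (-0.43). In wild type cells Uqcc1, 1 of 4 complex III assembly genes, rose (0.34), and of 12 import genes Timm50 rose (0.56) and Timm10 fell (-0.44), with no call in deleted cells. None of 7 other complex I assembly genes and 3 genes of ATP synthase assembly and inhibition passed. Below 0 in wild type and deleted cells were 52 and 54 of 68 ribosomal genes and 10 and 9 of 12 carrier genes. Complex II assembly had 4 and 4 of 4, biogenesis 10 and 10 of 15 and import 9 and 7 of 12. The citric acid cycle list had 10 and 7 of 14, and other complex I assembly 5 and 4 of 7. Complex III assembly had 1 and 3 of 4, and ATP synthase assembly and inhibition 1 and 2 of 3. Over all genes, 49.7% and 53.8% were below 0.

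Between genotypes, averaged over cultures, the lists differed in direction; over all genes 14.1% rose and 10.3% fell. Of the 14 genes of pyruvate dehydrogenase and the citric acid cycle 6 rose, all of the cycle, and Pdha1, of pyruvate dehydrogenase, fell, with a median of 0.17, among them Ogdh at 0.44 (adjusted p = 0.00203, limma) and citrate synthase Cs at 0.36 (adjusted p = 0.00321). Of the 12 electron carrier genes 4 rose and 0 fell, including Etfa at 0.45 and cytochrome c, Cycs, at 0.27 (adjusted p = 0.0331). Of the 68 mitochondrial ribosomal protein genes 18 fell and 2 rose, with a median of -0.11, for example Mrpl34 at -0.53 and Mrpl44 at -0.48. Of the 17 complex IV assembly factors 3 fell, led by Cox20 at -0.52, and 2 rose, Cox19 at 0.41 and Cox17 at 0.37. Of the 15 biogenesis genes 5 fell, led by Pprc1 at -0.45, and 2 rose, Esrra at 0.33 and Tfb1m at 0.29. Of 7 other complex I assembly genes Tmem126a fell (-0.45) and Timmdc1 rose (0.23). In the smaller lists, 1 of 4 complex II assembly genes (Sdhaf4, -0.28) and 1 of 12 import genes (Timm44, -0.28) fell, and 0 of 4 complex III assembly genes and 0 of 3 genes of ATP synthase assembly and inhibition passed.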

How the data were processed

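RNA of 12 samples was measured on 1-colour Illumina bead arrays. The deposited files gave non-normalized bead intensities with detection p-values, per the file headers, and the authors' processed intensities on a linear scale, whose 12 columns share 1 minimum (86.5) and 1 maximum (35095), as after quantile normalization. The submitters' processing notes name GenomeStudio; its version and settings are not given in the sources used here. The processed intensities were background-corrected (normexp, offset 50), put on the log2 scale and quantile normalized in R 4.3.3 with limma 3.58.1. Detection p-values followed each array by rank order. Of 45281 probes 34885 had 1 gene symbol, 18 several and 10378 none, and 15999 were kept, for 9527 genes. limma (lmFit, eBayes) fitted 4 group means with 8 residual degrees of freedom; tests were two-sided with Benjamini-Hochberg adjustment over 9527 genes at 0.05. Second probes of a gene were adjusted over all probes kept. In simulated data for the culture comparison in wild type cells, the test recovered 13 of 50 genes at a true 1.3-fold change, 31 of 50 at 1.5-fold, 47 of 50 at 2-fold and 49 of 50 at 4-fold. Over all these sizes together, 10 of 150 calls were false. Offset and floor compress differences of dim probes. Same-numbered genotype pairs within a culture correlated in their deviations at 0.268 to 0.681; these pairs are the same arrays under both namings. Named genes were those that passed (at most 12 per direction), the largest difference per complex, core enzymes, isoform pairs, and up to 4 passing genes per other list. Members and lists were chosen with earlier results of these data known. Some genes that the naming rule could take in are not reported here.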

Additional observations from a re-analysis of the deposited data

How the results depend on the processing

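No called difference of a named gene changed sign under any alternative run. Counts of genes passing, in the order deletion with LIF (0), deletion without LIF (2), culture in wild type (12), culture in deleted (7) and deletion averaged (7), moved most with the scaling and the pairing. Median scaling of the non-normalized table gave 0 for deletion without LIF, 1 (not among the 12), 2 (Cox7a1 and Cox6a2) and 1 for the last 3, while the median differences grew to 0.11, 0.12, -0.31, -0.27 and 0.11, with no all-gene medians given beside them. Among all genes it left 717 calls with 229 higher in the wild type culture comparison, against 2010 with 1054 higher, and 362 with 69 higher in deleted cells, against 1027 with 479 higher; for deletion it left 313 with 289 higher, 257 with 234 higher and 959 with 846 higher, against 955 with 635, 999 with 564 and 2320 with 1343. With no probe filter, deletion without LIF gave 0 and the last 3 gave 5, 3 and 3. A neqc-type correction gave 0 for deletion without LIF and 3 for the culture in deleted cells, and the mean of all probes gave 1 for deletion without LIF. Processed values with log2 only gave 1 for deletion with LIF and 12 averaged, as did an intensity trend (1 and 12), and detection on all arrays gave 11 averaged. The all-gene counts of these runs, apart from median scaling, are not given here. With the replicate number as a block the counts were 3, 5, 24, 16 and 20, where 21.3%, 21.9%, 31.7%, 19.4% and 36.5% of all genes passed. Deviations of same-numbered arrays across cultures correlated at 0.524, -0.044 and 0.361 in wild type and at 0.574, 0.343 and 0.376 in deleted cells, and these numbers depend on the naming. The replicate block within culture, chosen after seeing the data, gave 4, 8 (with Cox6a2) and 25 for the deletion comparisons, where 25%, 25.2% and 39.6% of all genes passed. Leaving out 1 array at a time gave 0 to 1, 0 to 2, 5 to 13, 1 to 8 and 3 to 10 calls, with the lowest culture counts without wild type replicate 2 without LIF (5) and without deleted replicate 3 with LIF (1, which was Cox6a2). The all-gene counts with an array left out are not given here either. The medians ran from 0.03 to 0.08, 0.03 to 0.08, -0.20 to -0.16, -0.21 to -0.11 and 0.05 to 0.08. The interaction kept 0 calls under the alternatives run, with medians from -0.02 to 0.04 when arrays were left out. Losses of calls have causes that were not tested. A chip block was not run because the file headers name no chip. Ndufa3 in the averaged comparison passed under every alternative run, and Cox7a2, Atp5h and Cox5a in wild type cells under all but median scaling. Of the values of single named genes under the alternatives, 2971 kept their side of the threshold, 175 lost a call and 47 gained one.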

Other observations

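The mitochondrial DNA encodes a few respiratory subunits of its own, and 2 of them had probes on the array; they were chosen after the array's symbols had been seen. CYTB, of complex III, read 13.90, 14.60 and 14.58 in wild type cells with LIF, 12.78, 14.05 and 13.86 without, 13.49, 14.35 and 14.28 in deleted cells with LIF and 12.62, 13.87 and 13.95 without. ND1, of complex I, read 12.43, 13.28 and 13.20, then 11.55, 12.94 and 12.96, then 12.34, 13.08 and 13.43, then 11.57, 12.92 and 13.11 in the same order of groups. For both, under the naming used, the array named replicate 1 was the lowest of its group in all 4 groups. The culture differences of CYTB, -0.80 in wild type and -0.56 in deleted cells, did not pass (adjusted p = 0.159 and 0.406, limma), nor did those of ND1, -0.49 and -0.42 (adjusted p = 0.464 and 0.616).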
